A study of Mus musculus with 63 samples.

Results

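Amino acids enter and leave cells through several families of membrane carriers, and 6 of these families were read here in mouse embryonic stem cells: Slc1, Slc3, Slc7, Slc36, Slc38 and Slc43. Every gene on the array was taken whose symbol is one of these family names followed by a and a number, which gave 39 of the 16593 genes with a symbol. Of the 39, 38 encode carriers or their subunits and 1, Slc7a6os, is a gene on the strand opposite Slc7a6 that the naming rule also takes. Genes were tested if some line had its 3 cultures of an exposure all above the lowest printed intensity, and 20 of the 39 passed. Of these, 11 were above the floor on all 63 arrays and 9 were at it on some. Another 15 were at the floor on every array and 4 were above it on 1 to 4 arrays. Slc3a1, Slc36a4, Slc38a6 and Slc43a1 were not analysed here.

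The 63 cultures came from 7 lines of TT2 embryonic stem cells, a C57BL/6xCBA strain labelled male. The G9a KO1 reconstituted line carries a G9a transgene in the G9a KO1 background and gave 3 cultures per exposure. G9a KO (KO1 and KO2), JMJD1a KO (KO1 and KO2) and wild-type (WT1 and WT2) cells gave 6 each, 3 per line. Each line was kept for 24 h in normoxia (21% oxygen), for 20 h in normoxia and then 4 h in hypoxia (1% oxygen), or for 24 h in hypoxia, beginning 18 h after plating at a density of 2, 4 or 6 (in units of 1e5 cells per 6 cm plate). G9a, encoded by Ehmt2, adds methyl groups to lysine 9 of histone H3, and Jmjd1a, encoded by Kdm3a, removes them with the use of oxygen. The medium of all cultures held serum, LIF, GlutaMAX and added non-essential amino acids.

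Slc1 proteins carry glutamate or exchange small neutral amino acids, and Slc38 proteins take up glutamine, alanine and similar amino acids with sodium or act at the lysosome. Slc7 proteins either work alone on arginine and lysine or pair as light chains with a heavy chain of the Slc3 family, which brings them to the cell surface. In other mouse and human cells several of these genes are known to be induced by the transcription factor Atf4 when amino acids run short, and uptake through them is read by the mTORC1 kinase at the lysosome.

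Promoters of 4 members are shown, chosen after their values were seen, because these genes gave clear genotype, exposure or density differences below or disagreed between probes. They are RefSeq sequences of mouse GRCm38.p6, from 250 bases before to 50 bases after the annotated start, written along the gene's strand. The Slc1a1 promoter lies at chr19:28834885-28835184 on the plus strand, that of Slc1a4 at chr11:20332664-20332963, that of Slc7a7 at chr14:54417895-54418194 and that of Slc38a2 at chr15:96699679-96699978, these 3 on the minus strand. Capitals mark matches on either strand to the C/EBP-ATF element that Atf4 can bind (TGATGNAA), the core that hypoxia-inducible factors can bind (ACGTG or GCGTG) and the antioxidant core (TGACNNNGC). No marked match overlaps another in these windows.
Slc1a1: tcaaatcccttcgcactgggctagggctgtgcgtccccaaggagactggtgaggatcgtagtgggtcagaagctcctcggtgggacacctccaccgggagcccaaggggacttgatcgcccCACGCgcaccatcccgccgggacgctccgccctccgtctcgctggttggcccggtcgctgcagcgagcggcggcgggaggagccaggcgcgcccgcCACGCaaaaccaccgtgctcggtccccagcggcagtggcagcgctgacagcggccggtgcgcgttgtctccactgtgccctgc
Slc1a4: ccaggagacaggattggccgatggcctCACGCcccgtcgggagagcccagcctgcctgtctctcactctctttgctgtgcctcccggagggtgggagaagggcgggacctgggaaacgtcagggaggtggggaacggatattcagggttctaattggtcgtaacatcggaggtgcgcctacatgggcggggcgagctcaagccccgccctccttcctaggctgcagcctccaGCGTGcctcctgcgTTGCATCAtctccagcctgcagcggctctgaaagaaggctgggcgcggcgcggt
Slc7a7: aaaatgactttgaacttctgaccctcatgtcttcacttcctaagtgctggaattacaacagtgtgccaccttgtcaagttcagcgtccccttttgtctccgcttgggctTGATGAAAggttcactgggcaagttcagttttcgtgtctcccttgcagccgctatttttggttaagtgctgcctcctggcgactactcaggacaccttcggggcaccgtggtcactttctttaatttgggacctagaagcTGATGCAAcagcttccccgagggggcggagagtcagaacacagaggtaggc
Slc38a2: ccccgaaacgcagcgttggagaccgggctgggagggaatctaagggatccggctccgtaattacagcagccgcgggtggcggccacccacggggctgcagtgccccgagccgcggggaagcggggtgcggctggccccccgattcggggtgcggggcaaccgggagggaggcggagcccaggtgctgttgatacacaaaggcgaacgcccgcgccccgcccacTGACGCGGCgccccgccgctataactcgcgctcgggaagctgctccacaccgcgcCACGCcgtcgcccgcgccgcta

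Slc1a1 had 2 hypoxia cores, both on the reverse strand, and none of the other motifs. Slc1a4 had a C/EBP-ATF element beside its start and 2 hypoxia cores. Slc7a7 had 2 C/EBP-ATF elements in the window shown. RefSeq lists 5 starts for it: the second window repeats 1 of these elements and has a hypoxia core, the third has a hypoxia core alone, and the other two hold no match. Slc38a2 had an antioxidant core and a hypoxia core. Promoter windows were found for 28 of the 39 members (39 windows) and for 15 of the 20 tested. The C/EBP-ATF element occurred in 4 of the 39 members' windows (10.3%) and in 3.97% of all 32851 promoters of the same length. The Slc7a7 windows that share an element are counted apart among the 4. Among the 15 tested members it was found in 2, Slc1a4 and Slc7a7. The hypoxia core was in 64.1% of the members' windows and 43.8% of all promoters, and the antioxidant core in 12.8% and 12.4%. In Slc7a6 the antioxidant match shares bases with a hypoxia core. A palindromic CACGTG counts as a match on both strands. These matches are descriptions of letters in the windows.

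Values are log2 intensities with a floor of 4.32. Array totals ran from 6974757 to 8408782, and 40.3 to 46.4% of probes were above the floor. The arrays were cut into 8 runs of 8 consecutive arrays (7 in the last), called array sets here. Totals stepped at the borders except that between the 6th and 7th sets, at 8183542 to 8408782 and 8079619 to 8355538, which overlap. The file of a related table names 8 chips. No set held knockout and wild-type arrays of the same exposure, so genotype and array set cannot be told apart in those comparisons. Kdm3a was at the floor on all 18 JMJD1a KO arrays. Ehmt2 was still above it in G9a KO normoxia, at 7.43 to 8.03 (median 7.91), against 8.45 to 8.94 (median 8.61) in wild-type normoxia. The sources used here do not say whether its probe lies in the deleted stretch, so it does not check that label. WT2 had Eif2s3y, a Y-linked gene, at the floor on 5 of 9 arrays (4.32 to 5.53), and the other lines had it at 7.16 to 9.23, which goes against the male label of WT2. Wild-type calls on members, read from their tested probes, are therefore also given without it. All 7 embryonic stem cell markers were above the floor on every array (medians 9.36 to 14.50). Of 8 fibroblast feeder markers 4 were at the floor throughout (Col3a1, Postn, Lum and Dcn) and 2, Thy1 and Acta2 (up to 11.81), above it on every array. Of 6 trophectoderm markers Elf5 was at the floor throughout, and Tfap2c (median 10.19) and Krt8 (median 9.42) were above it on every array. Of 5 primitive endoderm markers Dab2 was above it on every array and 0 were at it throughout. The part of such cells in the results was not tested. In bulk RNA, fewer cells of a type and less RNA per cell cannot be told apart.

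After 24 h of hypoxia wild-type cells carried less RNA for a glutamate carrier, a neutral exchanger, an arginine carrier and a cystine light chain, and more for a glutamine carrier, whose direction turned without WT2 (Slc38a2, 0.69 with both lines and -0.13 without WT2). By limma, 2 of the 20 tested members rose (Slc38a2 and Slc7a4) and 4 fell (Slc1a3, Slc1a4, Slc7a3 and Slc7a9), which is 30% of them against 36.9% of all 8740 tested genes. The members' median was -0.07 and that of all genes 0 (log2). The share of members called was thus no higher than that of genes at large. With the array set as a random block all 6 were called again, where 36.4% of all genes were called with the block and 33.3% both without and with it. Without WT2 5 members were called and without WT1 7. The share of all genes called was not counted in fits that left out a line, here and below. Slc7a9 is the 1 of the 6 called without WT2 and also without WT1, at -0.85 (adjusted p = 4.67e-06) and -0.27 (adjusted p = 0.0477). No line had its 3 Slc7a9 cultures all above the floor at 24 h, so it passed the filter only through normoxia or 4 h cultures. Its 24 h tests thus describe the size of a fall that the filter favoured.

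After 4 h, 1 member rose in wild-type cells (Slc38a7) and 4 fell (Slc1a3, Slc7a3, Slc7a6 and Slc7a9), which is 25% against 27.3% of all genes, with medians of -0.01 and 0. With the block 6 of the 20 members were called, the 5 among them, against 34.7% of all genes with the block. Without WT2 2 were called, Slc1a3 and Slc7a3, and without WT1 0. Between the hypoxic exposures, 24 h against 4 h, 2 rose (Slc38a2 and Slc7a7) and 3 fell (Slc1a4, Slc1a6 and Slc7a9), again 25%, against 26.5% of all genes (medians -0.01 and 0). With the block 4 of the 20 members were called, against 25.9% of all genes with it and 22.9% without and with it. All 4 were among the 5, and Slc1a4 was not called (adjusted p = 0.0919). Without WT2 4 members were called: the Slc38a2 difference turned to -0.23 (0.551) and Slc1a4 was at -0.21 (0.401), while Slc7a9 was at -0.53 (0.00398). Without WT1 that of Slc7a9 was 0. The 4 h and 24 h comparisons share their normoxia arrays, so their values are given side by side and not counted as separate support.

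In JMJD1a KO cells 3 members rose and 7 fell after 24 h, 50% against 50% of all genes (medians -0.07 and -0.00). Slc38a10, 1 of the 7, passed the filter only through JMJD1a KO2 normoxia cultures, which favours a fall here. Without JMJD1a KO2 it was at -0.01. After 4 h, 1 rose and 6 fell, 35% against 30.4% (medians -0.09 and 0). In G9a KO cells 3 rose and 2 fell after 24 h, 25% against 45.9% (medians 0.01 and -0.00), and 2 rose and 3 fell after 4 h, 25% against 33.8% (medians 0.00 and 0). In the reconstituted line 6 rose and 3 fell after 24 h, 45% against 39.1% (medians 0.00 and 0.02), and 2 rose and 4 fell after 4 h, 30% against 37.4% (medians -0.18 and 0.02). The 24 h arrays of each knockout line lie on other array sets than its normoxia arrays, so exposure and set cannot be told apart there, and in the reconstituted line 1 pair shares a set. With the set as a random block 5 of the 20 members were called in JMJD1a KO cells after 24 h, all among the 10 (30.1% of all genes). After 4 h 8 of the 20 were called with it, 6 of them among the 7 (32.4% of all genes). In G9a KO cells 3 of the 20 were called with it after 24 h, all among the 5 (30.1% of all genes with the block and 29.6% without and with it). After 4 h 1 of the 20 was called with it, also among the 5 (19.7% of all genes). In the reconstituted line 2 of the 9 stayed called after 24 h, Slc38a8 and Slc7a4 (21% of all genes with the block), and 0 of the 6 after 4 h (16.3%). Slc38a8 passed the filter only through WT2 cultures at 24 h. Its normoxia cultures were at the floor in every genotype, so its 24 h test could show only a rise. Of its 3 reconstituted cultures at 24 h, 1 was at the floor too.

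**Figure D1:**
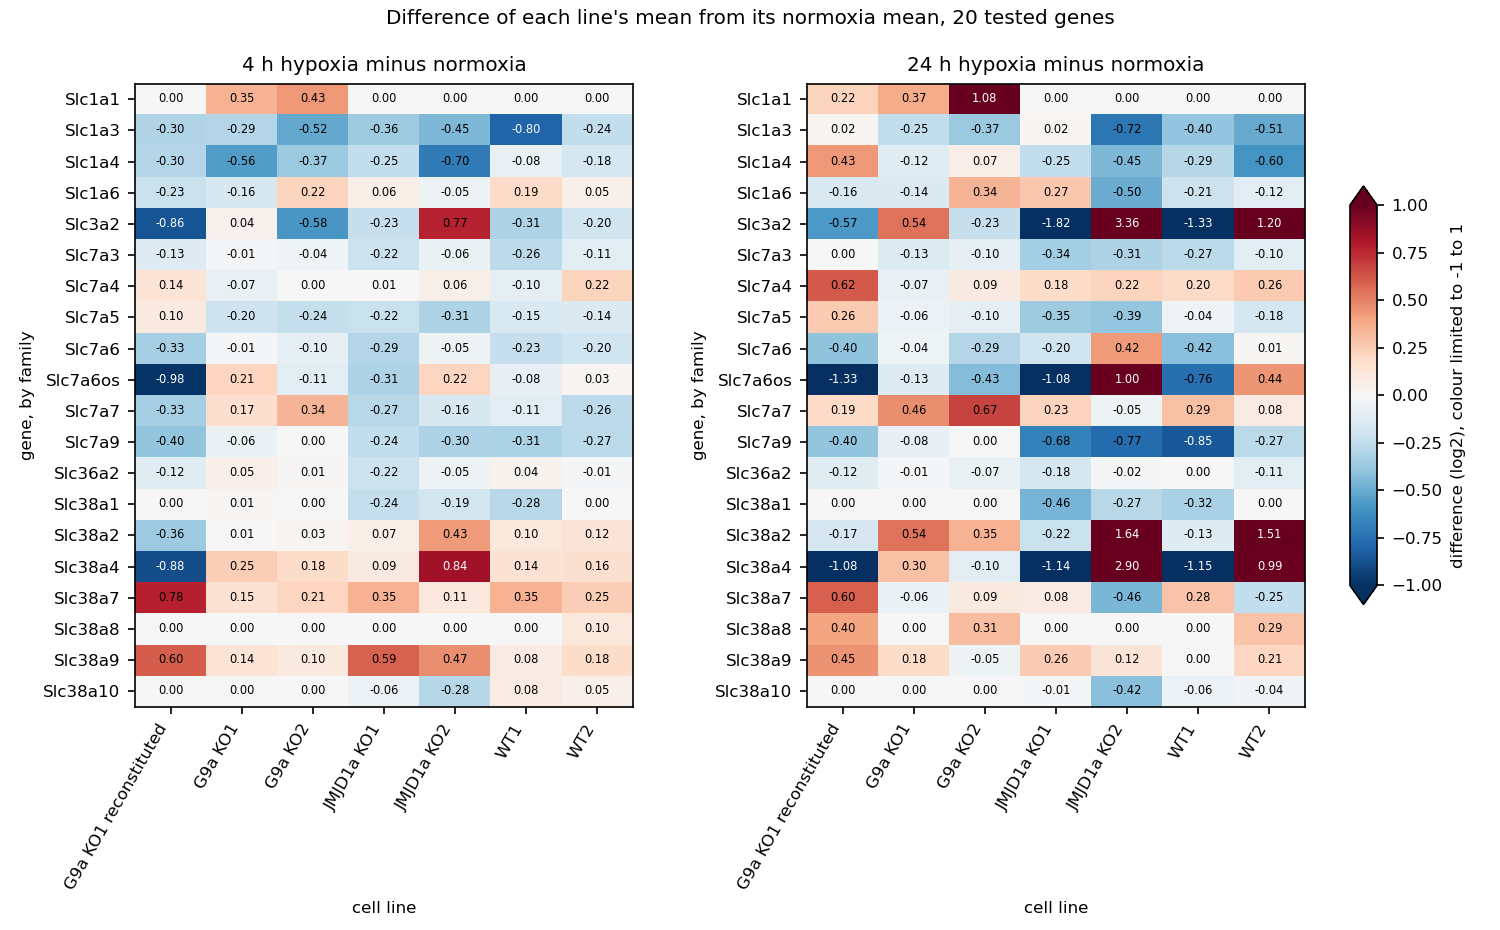
Difference of each line's mean log2 intensity at 4 h (left) and 24 h (right) of hypoxia from its normoxia mean, for the 20 tested genes (rows, by family) in 7 lines (columns), 3 cultures each, with the colour limited to -1 to 1. At 4 h Slc1a3 is lower in 7 of 7 lines and Slc38a7 higher in 7 of 7, while at 24 h Slc3a2 ranges from -1.82 to 3.36.

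Slc1a1, which takes up glutamate and also cysteine, was the member that separated G9a KO cells from the rest. It was above the floor in all 18 G9a KO cultures and at it in all 18 JMJD1a KO and all 18 wild-type cultures. In the 6 G9a KO cultures of each exposure the lowest, median and highest levels were 5.39, 5.64 and 6.23 in normoxia, 5.87, 5.99 and 6.71 after 4 h and 6.25, 6.42 and 6.67 after 24 h. The 3 reconstituted cultures were at the floor in normoxia and after 4 h, and at 4.32, 4.46 and 4.84 after 24 h. G9a KO cultures did not overlap with those of any other genotype at any exposure.

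Slc1a1 passed the filter on low values only through its G9a KO cultures, so it had to differ from the other genotypes, and its tests between genotypes describe the size of a gap that the filter had already chosen. G9a KO cells had at least 2.34-fold more Slc1a1 signal than wild-type cells in normoxia (limma over line means, adjusted p = 0.0220, 2 lines against 2) and at least 4.03-fold more after 24 h (adjusted p = 0.00432). It was the 1 member called in normoxia, against 23.4% of all genes, and after 24 h it and Slc1a4 were called, against 6.78% (medians over members -0.01 and 0.02, over all genes -0.13 at both exposures). With all arrays and the line as a random block 11 members were called in normoxia, against 55.7% of all genes, and 10 after 24 h, against 59.1%. That median of all genes in the fit over line means depends on the scaling, at 0.04 and 0.05 with no further scaling and -0.02 and -0.02 with median scaling. Both calls are lost without WT2 (adjusted p = 0.0736 and 0.0883), and the 24 h call without WT1 (0.0719), in fits with fewer lines and the same differences. The reconstituted line had at least 3.07-fold less Slc1a1 signal than G9a KO1 in normoxia (log2 difference -1.65 ± 0.10 SE, adjusted p = 3.49e-18, 3 cultures against 3). After 24 h the difference was -1.80 ± 0.10 (adjusted p = 1.70e-19). With the array set as a block these were -1.49 (2.28e-08) and -2.07 (3.23e-11). The errors come from 1 spread pooled over all 63 arrays. Slc1a1 was above the floor on 20 of them, and arrays at the floor add no spread. Its errors and p-values can therefore be too small for G9a KO cultures. Within the 5th array set, 4 G9a KO1 arrays were at 5.73 to 6.71 and 4 JMJD1a KO2 arrays at the floor, and within the 7th, 2 reconstituted arrays were at the floor and 6 G9a KO2 arrays at 5.87 to 6.67.

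Slc1a1 rose further after hypoxia in G9a KO cells, by 0.39 ± 0.07 after 4 h (adjusted p = 1.83e-05) and 0.72 ± 0.07 after 24 h (adjusted p = 1.06e-11; with the block 0.80, 3.97e-08). The 6 cultures at 24 h were all above the 6 in normoxia, and at 4 h the groups overlapped. G9a KO1 gained 0.37 and G9a KO2 1.08 at 24 h. The difference of this response from the wild-type one was not called, at 0.72 (2 SE either side, 0.22 to 1.23, adjusted p = 0.731), and wild-type levels were at the floor, where a decrease cannot be seen. A further Slc1a1 probe was above the floor on 14 arrays and tracked the first (r = 0.80 over 63 arrays, which share their lines), with a G9a KO over wild-type difference of 0.08 in normoxia and a 24 h difference of 0.45 in G9a KO cells.

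**Figure D2:**
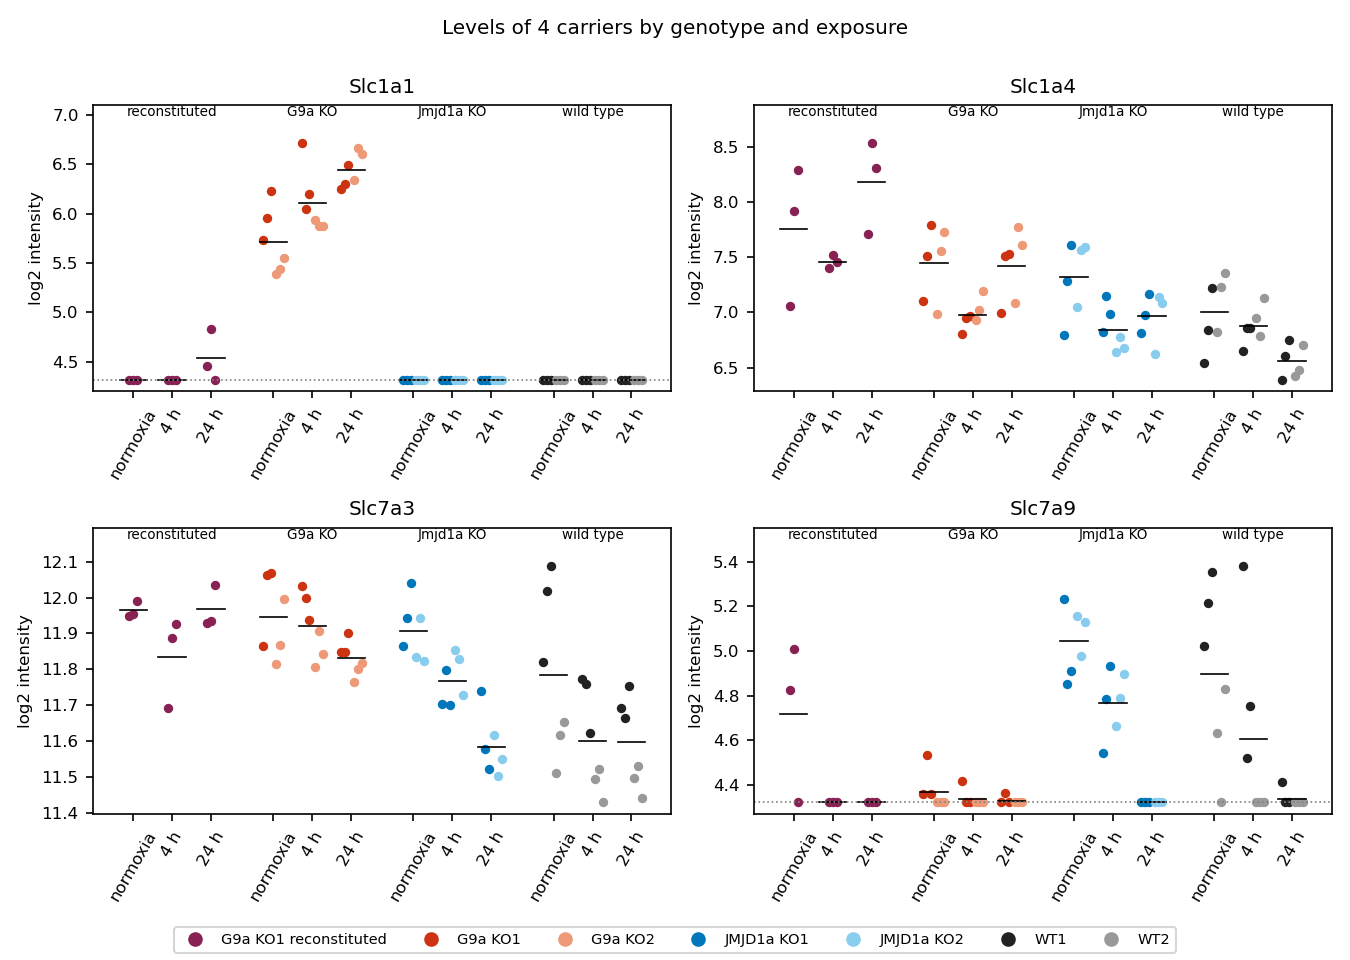
Log2 intensity of Slc1a1, Slc1a4, Slc7a3 and Slc7a9 in each culture by genotype and exposure, with points coloured by line, bars at group means (n = 6, reconstituted n = 3) and a dotted line at the floor of 4.32. Slc1a1 lies above the floor in all 18 G9a KO cultures and at it in all wild-type and JMJD1a KO cultures, and Slc7a9 reaches the floor in all 6 JMJD1a KO cultures after 24 h.

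Slc1a3, a sodium-dependent glutamate carrier best known from glial cells, was lower after 4 h of hypoxia in 7 of 7 lines, by 0.24 to 0.80. Within array sets the 1 pair of G9a KO1 arrays went the other way, at 0.25. The other lines with such pairs were at -0.80 to -0.24, and G9a KO2 had none. The 3 reconstituted cultures were at 6.67, 6.71 and 7.06 in normoxia, 6.41, 6.54 and 6.58 after 4 h and 6.76, 6.83 and 6.90 after 24 h. In G9a KO cultures the lowest, median and highest levels were 5.39, 5.98 and 6.83 in normoxia, 5.12, 5.55 and 6.22 after 4 h and 5.28, 5.66 and 6.31 after 24 h. In JMJD1a KO cultures they were 7.09, 7.42 and 7.52, then 6.64, 6.99 and 7.32, then 6.64, 6.99 and 7.40. The reconstituted cultures at 4 h were all below those in normoxia and those at 24 h. The reconstituted groups at 24 h and in normoxia overlapped, as did all exposure groups of the knockouts. In wild-type cultures the levels were 6.71, 7.31 and 7.65 in normoxia, 5.98, 6.78 and 7.40 after 4 h and 6.29, 6.94 and 7.17 after 24 h, also overlapping.

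Slc1a3 fell in G9a KO cells, by 0.41 after 4 h and 0.31 after 24 h (adjusted p = 0.00435 and 0.0237), and in JMJD1a KO cells, by 0.41 and 0.35 (0.00487 and 0.00975). With the array set as a block the 24 h calls in both knockouts were lost, at -0.29 in G9a KO (0.218) and -0.31 in JMJD1a KO cells (0.165), and so was the 4 h call in G9a KO cells, at -0.41 (0.0858). With the block these differences stayed about as large, with larger errors. Without density 6 the G9a KO differences shrank to -0.16 after 4 h (0.203) and -0.07 after 24 h (0.593). That of JMJD1a KO cells after 4 h was then -0.22 (0.0897), and none of these was called. Without JMJD1a KO2 the 24 h difference in JMJD1a KO cells was 0.02. In wild-type cells it fell by 0.52 ± 0.11 after 4 h (SE, adjusted p = 0.000375) and by 0.45 ± 0.11 after 24 h (0.00138). Without WT2 the 24 h difference was -0.40 (0.0808) and the 4 h one -0.80 (0.000748), and without WT1 the 4 h one was -0.24 (0.336). Within array sets the 24 h difference was -0.48 in WT1 (2 pairs of arrays) and -0.28 in WT2 (1 pair).

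Slc1a3 levels in G9a KO normoxia were below those in wild-type normoxia by 1.25 ± 0.32, which did not pass the test (adjusted p = 0.0587; 0.158 at -0.95 without WT2), and the groups overlapped. The reconstituted line was higher than G9a KO1 by 0.45 in normoxia (adjusted p = 0.0305) and by 0.72 after 24 h (0.000222), and neither was called with the array-set block (0.522 and 0.644). Slc1a6, a glutamate carrier known from cerebellar Purkinje cells, was near the floor, from 4.32 to 5.00 over all arrays. It was called for 24 h against 4 h in wild-type cells (-0.29 ± 0.10, adjusted p = 0.0281; 0.0383 without WT2 and 0.431 without WT1). Slc1a2 and Slc1a7, the other glutamate carriers, were at the floor on every array.

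Slc1a4, an exchanger of alanine, serine and cysteine and a known Atf4 target in human cells, had the steepest slope with seeding density among the members called for it, and 24 h differences of both signs across genotypes. The 3 reconstituted cultures were at 7.05, 7.92 and 8.29 in normoxia, 7.40, 7.45 and 7.52 after 4 h and 7.71, 8.31 and 8.53 after 24 h. In G9a KO cultures the lowest, median and highest levels were 6.99, 7.53 and 7.79, then 6.81, 6.96 and 7.19, then 7.00, 7.52 and 7.78. In JMJD1a KO cultures they were 6.80, 7.43 and 7.61, then 6.64, 6.80 and 7.15, then 6.62, 7.03 and 7.16. The reconstituted cultures at 24 h were all above those at 4 h, and the other exposure groups of these genotypes overlapped. Wild-type cultures, which overlapped too, were at 6.54, 7.03 and 7.35 in normoxia, 6.65, 6.86 and 7.13 after 4 h and 6.39, 6.54 and 6.75 after 24 h. After 24 h the lowest G9a KO culture was above the highest wild-type culture.

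Slc1a4 rose after 24 h in the reconstituted line by 0.43 ± 0.15 (adjusted p = 0.0225; 0.543 with the block; within the 8th array set 0.02 from 1 pair). In G9a KO cells the 24 h difference was not called, whereas the 4 h difference was -0.47 ± 0.11 (0.000598; 0.0736 with the block). It fell after 24 h by 0.35 ± 0.11 in JMJD1a KO cells (0.00632; 0.0926 with the block) and by 0.44 ± 0.11 in wild-type cells (0.000991). Without WT2 the wild-type difference was -0.29 (0.188). At 4 h the line means were below normoxia in 7 of 7 lines, by 0.08 to 0.70.

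After 24 h of hypoxia Slc1a4 was higher in G9a KO than in wild-type cells by 0.86 ± 0.09 (adjusted p = 0.0286), and in normoxia the difference was 0.44 ± 0.12 (0.0669). Leaving out any 1 of the 4 lines ended the 24 h call, for instance at 0.156 without WT2. The reconstituted line was at a higher level than G9a KO1 after 24 h, by 0.84 ± 0.15 (adjusted p = 1.12e-05; 0.437 with the block). Slc1a5, a glutamine exchanger of the same branch, was at the floor on every array.

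Slc7a3, a carrier of arginine and lysine, differed by small amounts with little spread between cultures. In the 3 reconstituted cultures it was at 11.95, 11.95 and 11.99 in normoxia, 11.69, 11.89 and 11.93 after 4 h and 11.93, 11.94 and 12.04 after 24 h. In G9a KO cultures the lowest, median and highest levels were 11.81, 11.93 and 12.07, then 11.81, 11.92 and 12.03, then 11.77, 11.83 and 11.90. In JMJD1a KO cultures they were 11.82, 11.90 and 12.04, then 11.70, 11.76 and 11.86, then 11.50, 11.57 and 11.74. The JMJD1a KO groups at 24 h and in normoxia did not overlap. Wild-type cultures were at 11.51, 11.74 and 12.09 in normoxia, 11.43, 11.57 and 11.77 after 4 h and 11.44, 11.60 and 11.75 after 24 h, and these overlapped.

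Slc7a3 fell after 24 h by 0.12 ± 0.05 in G9a KO cells (adjusted p = 0.0395; 0.250 with the block) and by 0.32 ± 0.05 in JMJD1a KO cells (1.84e-07; 0.000887 with the block). It fell by 0.19 ± 0.05 in wild-type cells (0.00114). Without WT1 the wild-type difference was -0.10 (0.227), and without WT2 it was -0.27 (0.00230). At 4 h it fell by 0.14 in JMJD1a KO and 0.18 in wild-type cells (0.0188 and 0.00199; in wild-type cells -0.26 and 0.00641 without WT2). Line means at 4 h were below normoxia in 7 of 7 lines, by 0.01 to 0.26. Within array sets the 1 pair of G9a KO1 arrays went the other way, at 0.17. The other lines with such pairs were at -0.26 to -0.05, and G9a KO2 had none. Slc7a3 had the smallest steps between array sets of the 11 tested members above the floor on every array, with a median of 0.05. A further Slc7a3 probe, above the floor on 22 arrays, gave a wild-type 24 h difference of 0.02.

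Slc7a4, a relative of the cationic carriers whose transported substrate is unsettled, was near the floor. In the 3 reconstituted cultures it was at 4.32, 4.38 and 4.47 in normoxia, 4.32, 4.56 and 4.70 after 4 h and 4.75, 4.94 and 5.33 after 24 h. G9a KO cultures were at the floor in 5, 6 and 3 of 6. Wild-type cultures were at 4.32, 4.32 and 4.55, then 4.32, 4.34 and 4.73, then 4.38, 4.64 and 4.83, with 4, 3 and 0 of 6 at the floor. It rose after 24 h by 0.62 ± 0.11 in the reconstituted line (adjusted p = 1.06e-05; 0.00146 with the block), where the groups did not overlap. It rose by 0.20 ± 0.08 in JMJD1a KO (0.0229; 0.233 with the block) and 0.23 ± 0.08 in wild-type cells (0.0131), where they did. Without WT2 the wild-type difference was 0.20 (0.160). The other cationic carriers, Slc7a1, Slc7a2 and Slc7a14, were at the floor on every array.

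Slc7a9, the light chain that carries cystine and basic amino acids in kidney and gut, fell in hypoxia to the floor or near it. The reconstituted cultures were at 4.32, 4.83 and 5.01 in normoxia and at the floor in all 3 at both hypoxic exposures, and G9a KO cultures did not go above 4.53. JMJD1a KO cultures had lowest, median and highest levels of 4.85, 5.05 and 5.23 in normoxia and 4.54, 4.79 and 4.93 after 4 h, and were at the floor in 6 of 6 after 24 h. Wild-type cultures were at 4.32, 4.93 and 5.36 in normoxia, 4.32, 4.42 and 5.38 after 4 h and 4.32, 4.32 and 4.41 after 24 h. The JMJD1a KO groups at 24 h and in normoxia did not overlap, and the 24 h groups of the other genotypes did.

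After 24 h Slc7a9 fell by 0.40 ± 0.13 in the reconstituted line (adjusted p = 0.0135; 0.773 with the block). It was at least 1.55-fold lower in JMJD1a KO cells (log2 difference -0.72 ± 0.09, 1.37e-08; 4.19e-05 with the block) and fell by 0.56 ± 0.09 in wild-type cells (3.39e-06; 1.24e-05 with the block). Within array sets the wild-type differences were -0.75 in WT1 and -0.31 in WT2. At 4 h it was lower in 6 of 7 lines and higher in 0, with differences of -0.27 ± 0.09 in JMJD1a KO cells (0.0192) and -0.29 ± 0.09 in wild-type cells (0.0138; 0.115 without WT2 and 0.0832 without WT1). Differences that end at the floor can be understated. Slc7a9 passed the filter on low values through normoxia or 4 h cultures alone, which favours a fall at 24 h.

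Slc7a6, a light chain that exchanges arginine and glutamine, was lower after 4 h in 7 of 7 lines, by 0.01 to 0.33. Within array sets the 1 pair of reconstituted arrays was at 0.05. The other lines with such pairs were at -0.29 to -0.015, and G9a KO2 had none. In the reconstituted line Slc7a6 was at 7.11, 7.63 and 7.79 in normoxia, 7.04, 7.16 and 7.34 after 4 h and 6.91, 7.13 and 7.30 after 24 h. G9a KO cultures covered 7.05 to 7.97 and JMJD1a KO cultures 7.33 to 8.30 over the 3 exposures. Wild-type cultures were at 7.28, 7.64 and 8.13, then 7.02, 7.41 and 8.06, then 7.27, 7.43 and 7.84. The exposure groups overlapped. It fell by 0.40 after 24 h in the reconstituted line (adjusted p = 0.00616; 0.310 with the block) and by 0.22 ± 0.08 after 4 h in wild-type cells (0.0493; 0.219 without WT2 and 0.302 without WT1).

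Slc7a6os, which is not a carrier, moved with the array sets: its median step between sets was 1.24, and 2.67% of all genes had a larger one. In the reconstituted line it was at 5.88, 5.96 and 6.17 after 24 h, against 6.28, 7.77 and 7.94 in normoxia, with no overlap. It fell there by 1.33 ± 0.28 (adjusted p = 0.000199; 0.0622 with the block). Its line differences at 24 h were lowest in the reconstituted line and highest, at 0.997, in JMJD1a KO2.

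Slc7a7 and Slc7a5, named here after their values were seen, are light chains for basic amino acids with leucine and for large neutral amino acids. Slc7a7 was at 7.35, 7.84 and 8.22 in G9a KO normoxia, 7.93, 8.11 and 8.34 after 4 h and 8.22, 8.47 and 8.65 after 24 h. In wild-type cultures it was at 8.25, 8.43 and 8.64, then 8.03, 8.22 and 8.49, then 8.32, 8.60 and 9.01. The G9a KO groups at 24 h and in normoxia met at 8.22, and the wild-type groups overlapped. G9a KO cells rose by 0.57 ± 0.09 after 24 h (adjusted p = 1.34e-06; 0.00765 with the block) and by 0.25 ± 0.09 after 4 h (0.0259; 0.367 with the block). Wild-type cells were at 0.19 after 24 h (0.107), and between 24 h and 4 h they rose by 0.37 ± 0.09 (0.00151; 0.0287 without WT2). Within array sets the 24 h level exceeded the 4 h level in all 6 line and set pairs that hold both, by 0.26 to 0.53. Another Slc7a7 probe, added as an alternative after seeing the data, gave 0.50 in G9a KO cells at 24 h (4.72e-08), 0.33 in wild-type cells at 24 h (0.000108) and 0.42 for 24 h against 4 h (4.67e-06). This added probe was not fitted without either wild-type line. The probes disagreed in direction in the reconstituted line after 24 h, at -0.15 for the added probe and 0.19 for the tested one, and neither was called.

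Slc7a5 was at 11.65, 11.67 and 11.77 in JMJD1a KO cells after 24 h, against 11.79, 12.11 and 12.23 in their normoxia, and the groups did not overlap. It fell there by 0.37 ± 0.07 (adjusted p = 1.60e-05; 0.00300 with the block) and by 0.26 ± 0.07 after 4 h (0.00222). In wild-type cells it was at 11.68, 11.80 and 11.99 after 24 h, against 11.73, 11.94 and 12.05 in normoxia, a difference of -0.11 that did not pass the test (0.238; -0.03 without WT2). In the reconstituted line it was higher than in G9a KO1 by 0.65 after 24 h (2.97e-07; 0.226 with the block) and by 0.32 in normoxia (0.00825; 0.275 with the block). Of the 10 light chains on the array, 4 were tested. Slc7a8 was above the floor on 2 arrays, and Slc7a10, Slc7a11, Slc7a12, Slc7a13 and Slc7a15 were at it on all of them. Slc7a11 is the cystine carrier of the Atf4 and Nrf2 responses.

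Slc38a2, the sodium-coupled system A carrier of glutamine and alanine that amino acid shortage is known to induce, gave unlike values by line and by probe. With the tested probe, the 3 reconstituted cultures were at 11.81, 12.37 and 12.39 in normoxia, 11.68, 11.77 and 12.03 after 4 h and 11.91, 12.01 and 12.16 after 24 h. G9a KO cultures had lowest, median and highest levels of 11.93, 12.05 and 12.19, then 11.98, 12.11 and 12.14, then 12.29, 12.56 and 12.67. JMJD1a KO cultures were at 10.67, 10.97 and 11.40, then 10.49, 11.33 and 12.14, then 10.97, 11.74 and 12.43. The G9a KO groups at 24 h and in normoxia did not overlap, and those of JMJD1a KO cells did. Wild-type cultures, which overlapped too, were at 9.73, 10.84 and 11.77 in normoxia, 9.99, 10.90 and 11.87 after 4 h and 10.73, 11.58 and 11.99 after 24 h.

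The tested Slc38a2 probe rose after 24 h in G9a KO cells by 0.44 ± 0.16 (adjusted p = 0.0206; 0.00658 with the block), with 0.54 in KO1 and 0.35 in KO2. JMJD1a KO cells rose by 0.71 ± 0.16 (0.000271; 0.0120 with the block), with -0.22 in JMJD1a KO1 and 1.64 in JMJD1a KO2. Wild-type cells rose by 0.69 ± 0.16 (0.000545; 3.28e-06 with the block). Without WT2 the difference turned to -0.13 (0.778), and without WT1 it was 1.51 (2.47e-07). Within array sets WT1 was at 0.26 (2 pairs) and WT2 at 1.16 (1 pair).

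Another Slc38a2 probe, used as an alternative chosen after seeing the data, had a median step between array sets of 0.12, against 0.55 for the tested one, and the 2 hardly moved together (r = 0.08 over the 63 arrays). It gave smaller 24 h differences of 0.32 in G9a KO (0.000337), 0.15 in JMJD1a KO (0.0956) and 0.19 in wild-type cells (0.0377). The probes disagreed in direction in several genotype comparisons. For G9a KO over wild type in normoxia the tested probe was at 1.26 (0.214) and the other at -0.37 (0.0807). Without WT2 the tested probe was at 0.37. For the reconstituted line over G9a KO1 after 24 h the tested probe was at -0.57 (0.0287; 0.921 with the block) and the other at 0.16 (0.188). A rise after 24 h in G9a KO and in wild-type cells was called with both probes in the fits with all lines. In wild-type cells that of the tested probe turned without WT2, and the other probe was not fitted without either wild-type line. In G9a KO cells the rise of the tested probe was not called without KO1 (0.35), KO2 (0.54), density 2 (0.45) or density 4 (0.37). The other probe was not fitted in these ways.

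Slc38a4, another system A carrier that is imprinted in mouse, and Slc3a2, the heavy chain that partners Slc7a5 to Slc7a8 and Slc7a11, differed more between array sets than nearly all other genes. The median step between sets within a line and exposure was 1.58 for Slc38a4 and 1.85 for Slc3a2, against a median of 0.21 over all genes, and 1.36% and 0.481% of genes had larger ones. Slc38a4 was at 10.54, 10.76 and 11.01 in G9a KO normoxia, against 5.88, 7.59 and 8.94 in wild-type normoxia. Slc3a2 was at 10.04, 10.62 and 11.31 in G9a KO normoxia, against 5.66, 7.48 and 8.88 in wild-type normoxia. The groups did not overlap, and yet neither difference passed the test over lines, at 3.21 ± 0.94 (adjusted p = 0.0762) and 3.27 ± 1.18 (0.112). Without WT2 they were 1.98 and 1.83, and without WT1, where both were called, 4.44 (0.0292) and 4.71 (0.0403). In the 5th array set 4 JMJD1a KO2 arrays were at 9.79 to 10.08 for Slc38a4 and 10.17 to 10.28 for Slc3a2, whereas 5 arrays of the same line in the 4th set were at 6.62 to 7.27 and 6.24 to 7.14.

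Slc38a4 was called in JMJD1a KO cells after 24 h, at 0.88 ± 0.34 (0.0281; 0.216 with the block), with levels of 6.71, 8.39 and 9.94 against 6.67, 7.54 and 8.28 in normoxia. Without JMJD1a KO2 it was at -1.14. In wild-type cells it was at 6.07, 7.75 and 8.43 after 24 h, against 5.88, 7.59 and 8.94 in normoxia. The reconstituted line had 8.88, 8.92 and 9.05 after 24 h and was lower than G9a KO1 by 1.95 ± 0.48 (0.000625; 0.640 with the block), in groups that did not overlap. Slc38a1, the third system A carrier, was above the floor in 0 of 9 reconstituted, 1 of 18 G9a KO, 18 of 18 JMJD1a KO (4.77 to 5.48) and 7 of 18 wild-type cultures. It is named after its values were seen. It fell after 24 h in JMJD1a KO cells by 0.37 ± 0.07 (3.86e-05; 0.0224 with the block).

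**Figure D3:**
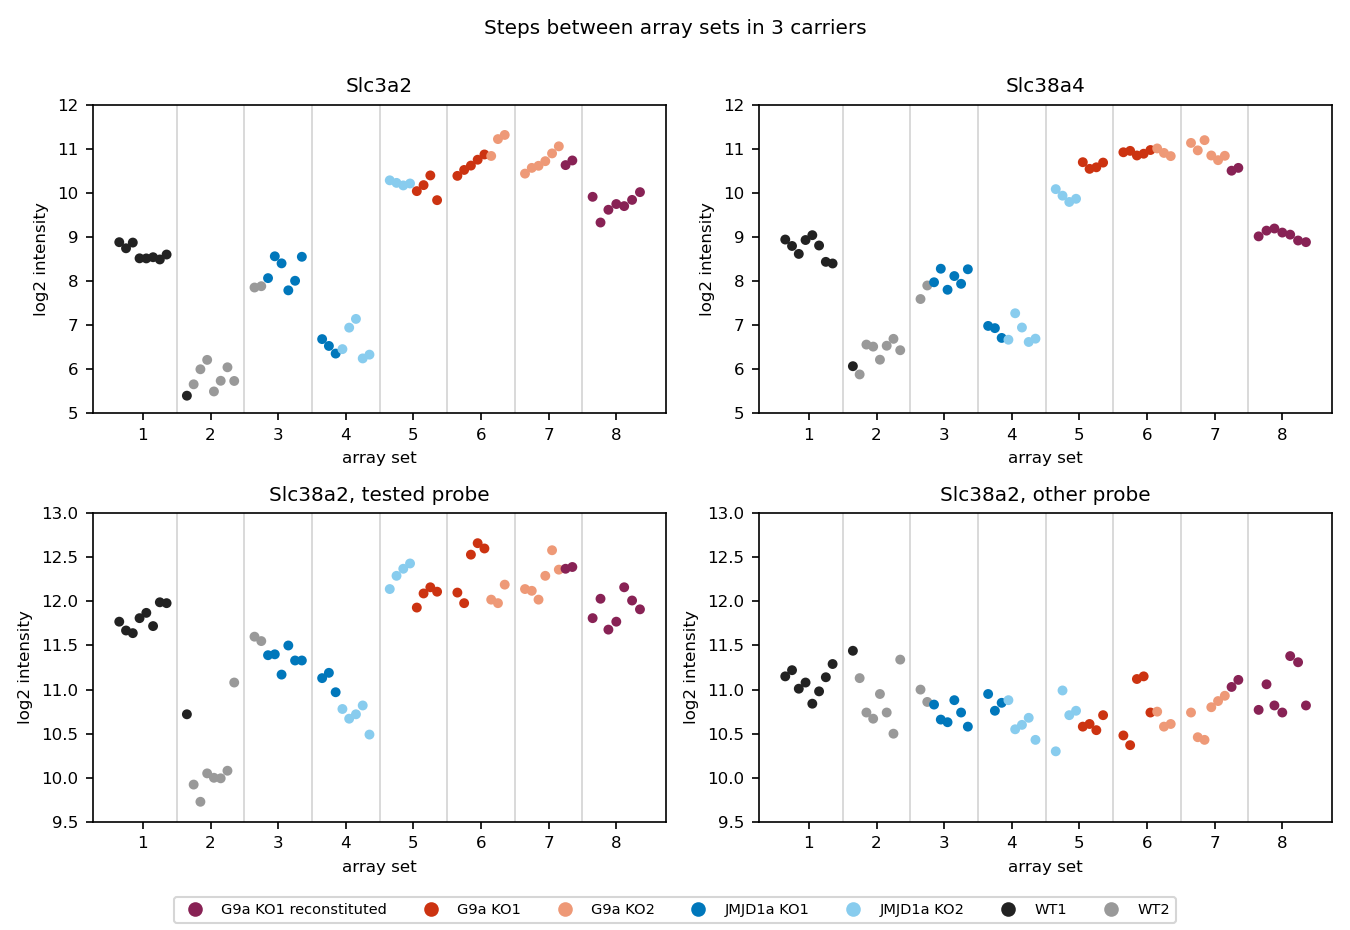
Log2 intensity of Slc3a2, Slc38a4 and Slc38a2 (tested and other probe) on all 63 arrays, grouped along the x axis by the 8 array sets and coloured by line. Slc3a2 and Slc38a4 step at the set borders inside a line, as in JMJD1a KO2 between the 4th and 5th sets, and the other Slc38a2 probe stays near its level throughout.

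Slc38a7, a lysosomal carrier of glutamine and asparagine, was higher after 4 h in 7 of 7 lines, by 0.11 to 0.77. The 3 reconstituted cultures were at 5.28, 5.81 and 6.52 in normoxia, 6.498, 6.69 and 6.74 after 4 h and 5.85, 6.76 and 6.80 after 24 h. Wild-type cultures were at 6.28, 6.79 and 7.32, then 6.70, 7.09 and 7.50, then 6.62, 6.81 and 7.03. The exposure groups overlapped. It rose after 4 h by 0.77 in the reconstituted line (adjusted p = 0.000143; 0.138 with the block) and by 0.30 ± 0.11 in wild-type cells (0.0425; 0.169 without WT2 and 0.366 without WT1). G9a KO cultures were at 5.73 to 6.47 in normoxia against 6.28 to 7.32 in wild type, a difference of -0.68 that did not pass the test (0.158; -0.35 without WT2).

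Slc38a9, a lysosomal arginine carrier and sensor for mTORC1, was higher after 4 h in 7 of 7 lines, by 0.08 to 0.60. Levels were near the floor: WT1 was at it on 8 of 9 arrays, and JMJD1a KO2 and G9a KO2 on 5 of 9 each. The 3 reconstituted cultures were at 4.81, 5.23 and 5.37 in normoxia, 5.59, 5.61 and 6.02 after 4 h and 5.57, 5.58 and 5.61 after 24 h, with no overlap between normoxia and either hypoxic exposure. They rose by 0.60 after 4 h (adjusted p = 0.00275; 0.248 with the block) and 0.45 after 24 h (0.0237; 0.581 with the block). JMJD1a KO cultures were at 4.32, 4.32 and 4.56, then 4.38, 4.98 and 5.25, then 4.32, 4.51 and 5.01. They rose by 0.53 ± 0.11 after 4 h (0.000287; 2.15e-05 with the block), in groups that overlapped. Within array sets the 4 h differences were 0.59 in JMJD1a KO1 (3 pairs) and 0.67 in JMJD1a KO2 (2 pairs). G9a KO cultures ranged from 4.32 to 5.29 and wild-type cultures from 4.32 to 4.81. A further Slc38a9 probe was above the floor on 17 arrays and did not track it (r = -0.11).

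The remaining tested members, Slc36a2, Slc38a8 and Slc38a10, stayed below 4.98 on every array. Slc38a10, a less studied Slc38 member named after its values were seen, was at the floor on all 27 G9a KO and reconstituted arrays and above it on 6 of 18 JMJD1a KO and 8 of 18 wild-type arrays. The system N carriers Slc38a3 and Slc38a5 were not tested, nor were Slc43a2 and Slc43a3. The first of each pair was at the floor on every array and the second above it on 2 and 1 arrays.

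Between JMJD1a KO and wild-type cells 0 of 20 members were called by limma over line means in normoxia and 0 after 24 h, against 0.0114% of all genes at both. At an unadjusted p under 0.05 there were 1 and 2, and with all arrays and the line as a random block 1 and 1 (1.77% and 6.2% of all genes). The members' medians were 0.12 and 0.11, and those of all genes 0 and -0.02. The difference in 24 h response between knockout and wild-type cells gave 0 calls for JMJD1a KO and 0 for G9a KO, against 0% of all genes, with 0 and 1 members at an unadjusted p under 0.05. With 2 lines against 2 these tests leave wide intervals and do not show that the genotypes respond alike.

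Between the reconstituted line and G9a KO1, 3 members rose and 1 fell in normoxia, 20% against 28.2% of all genes (medians 0.08 and 0.01). After 24 h, 7 rose and 4 fell, 55% against 55.5% (medians 0 and 0.08). With the array set as a block Slc1a1 was the 1 member called at each exposure, against 7.63% and 7.04% of all genes. The comparison is of 1 line with 1 line.

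A few members differed with seeding density. By limma 3 of 20 rose with density and 2 fell, 25% against 32.7% of all genes (medians 0.01 and 0), and all 5 were called with the block too (37.6% of all genes with it and 31.9% without and with it). Slc1a4 averaged 6.89, 7.24 and 7.33 at densities 2, 4 and 6, and was higher at 6 than at 2 in 21 of 21 combinations of line and exposure. Its slope was 0.11 ± 0.01 per unit of density (adjusted p = 5.37e-08). The mean difference between density 6 and density 2 was 0.75 in normoxia, 0.15 after 4 h and 0.45 after 24 h.

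Slc38a7 averaged 6.48, 6.65 and 6.77, rose by 0.07 ± 0.01 per unit (adjusted p = 0.000208) and was higher at 6 in 20 of 21 combinations. Slc7a5 averaged 11.66, 11.80 and 11.82 and was higher in 17 of 21 (slope 0.04 ± 0.01, 0.000587). Slc7a6 averaged 7.69, 7.54 and 7.42 and fell by 0.07 ± 0.01 per unit (4.79e-06), lower at 6 in 19 of 21. Slc38a9 averaged 4.81, 4.71 and 4.58 and fell by 0.06 ± 0.02 (0.00328), lower in 15 and higher in 3. Slc1a3 was higher at 6 in 7 of 7 lines in normoxia, by a mean of 0.43, and in 2 of 7 at each hypoxic exposure. Without density 2, in a fit with fewer cultures, none of these 5 was called. The Slc1a4 slope was then 0.05 (0.256) and that of Slc7a5 0.01 (0.876), both smaller by over 1.5 times, while Slc38a7 was at 0.06, Slc7a6 at -0.06 and Slc38a9 at -0.06. The other Slc38a2 probe fell by 0.06 per unit (6.08e-06), while the tested probe was lower at 6 in 12 of 21 combinations.

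**Figure D4:**
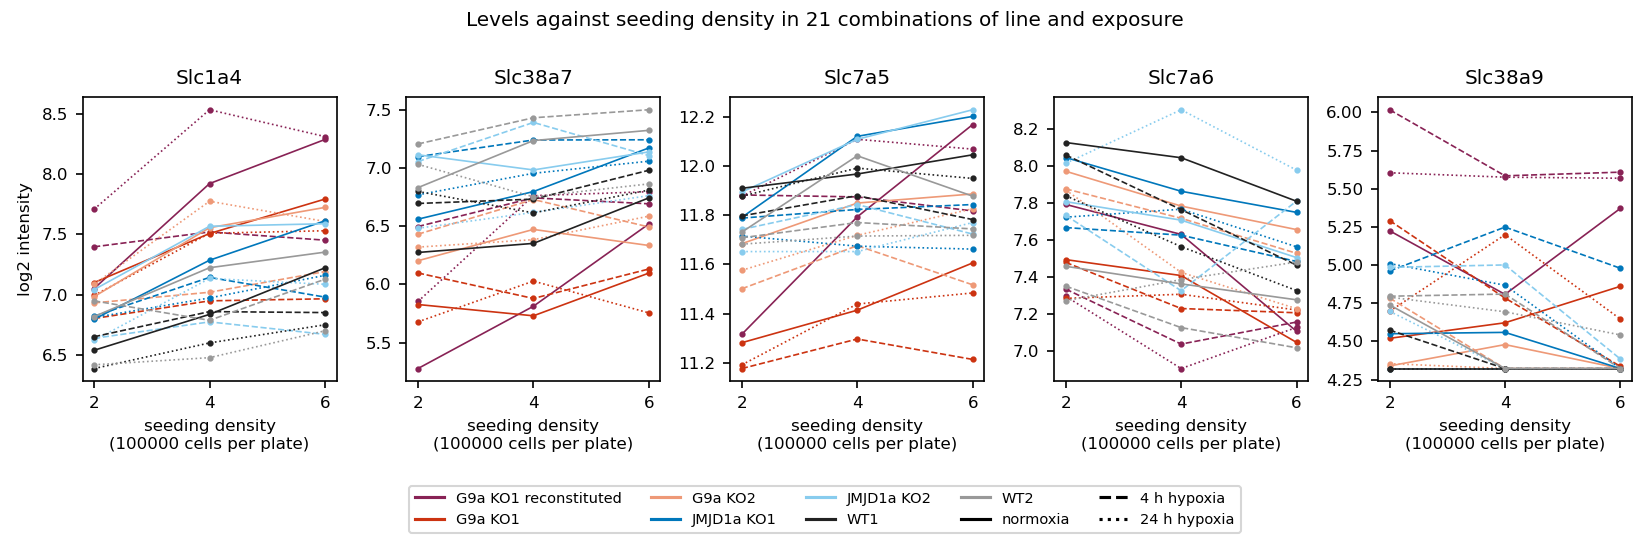
Log2 intensity against seeding density (2, 4 or 6, in units of 1e5 cells per plate) for the 5 members called for density, 1 line per cell line and exposure, coloured by cell line with the exposure as line style. Slc1a4 is higher at 6 than at 2 in 21 of 21 combinations and Slc7a6 lower in 19 of 21.

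Genes around the carriers were read from lists chosen for amino acid biology. Of 28 genes listed for the Atf4 amino acid response 27 were on the array and 22 were tested. After 24 h 3 rose and 15 fell in wild-type cells (median -0.52 against 0 for all genes, of which 18% rose and 18.9% fell), 17 of them also with the block. Without WT2 3 rose and 10 fell (median -0.44), and without WT1 2 and 15 (median -0.60), an alternative added after seeing the data. Chac1, which degrades glutathione, fell by 1.36 ± 0.20 (adjusted p = 4.16e-07) and Ddit3, a stress transcription factor, by 1.21 ± 0.23 (2.92e-05). Ddit4, an inhibitor of mTORC1 that is also a known hypoxia target, rose by 1.43 ± 0.18 (6.49e-09). In the reconstituted line 6 rose and 3 fell (median 0.18), against 23.6% and 15.4% of all genes, with 5 of the 9 called with the block too. In G9a KO cells 5 rose and 8 fell (median -0.17), against 21.2% and 24.8%, with 10 of the 13 called with the block. In JMJD1a KO cells 3 rose and 16 fell (median -0.62), against 22.5% and 27.5%, with 16 of the 19 called with the block. In G9a KO cells Chac1 was at -0.40 (0.106) and Ddit3 at -0.46 (0.0935), neither called. With density 18 of the 22 rose and 0 fell (median slope 0.12), against 15% of all genes that rose.

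Of 17 tested aminoacyl-tRNA synthetase genes, whose enzymes load amino acids onto tRNA, 0 rose and 9 fell after 24 h in wild-type cells (median -0.19), 8 of them with the block too. Of all genes 18% rose and 18.9% fell there. Without WT2 5 fell (median -0.16) and without WT1 10 (median -0.26). In reconstituted cells 3 fell, in G9a KO cells 14 and in JMJD1a KO cells 13, of which 1, 11 and 13 were called with the block too, against 15.4%, 24.8% and 27.5% of all genes that fell. Aars fell by 0.71 ± 0.10 (adjusted p = 8.99e-08), Nars by 0.50 ± 0.07 (3.36e-07) and Sars by 0.44 ± 0.09 (0.000159) in wild-type cells. Of 27 tested genes of amino acid sensing by mTORC1, 1 rose and 9 fell in wild-type cells (median -0.09), against 18% and 18.9% of all genes. The share called in either direction was close to the 36.9% of all genes. Castor2, related to an arginine sensor, was at -0.58 ± 0.16 (0.00315; 0.0849 with the block), Nprl3, of a complex that restrains mTORC1, at -0.52 ± 0.08 (4.00e-07) and Rragb, a Rag GTPase, at -0.43 ± 0.07 (1.73e-06). Without WT2 1 rose and 6 fell on this list, and Castor2 was at -0.32 (0.289).

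Of 18 tested genes of glutamine and glutathione metabolism, 2 rose and 9 fell in wild-type cells (median -0.11), against 18% and 18.9% of all genes. Chac1, counted here too, led them, followed by the alanine aminotransferases Gpt2 at -0.67 ± 0.14 (adjusted p = 0.000189) and Gpt at -0.49 ± 0.12 (0.00136). Without WT2 1 rose and 4 fell, Gpt2 was at -0.47 (0.0749) and Gpt at -0.42 (0.0704). Of 7 tested carriers of other families, 1 rose and 2 fell (median 0), against the same 18% and 18.9% of all genes. The glycine carrier Slc6a9 fell by 1.12 ± 0.18 (3.31e-06), the neutral amino acid carrier Slc6a15 by 0.55 ± 0.10 (3.91e-05), and the lysosomal histidine and peptide carrier Slc15a4 rose by 0.32 ± 0.09 (0.00262). All 3 were also called with the block and without WT2, and without WT1 Slc15a4 was at 0.25 (0.129).

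**Figure D5:**
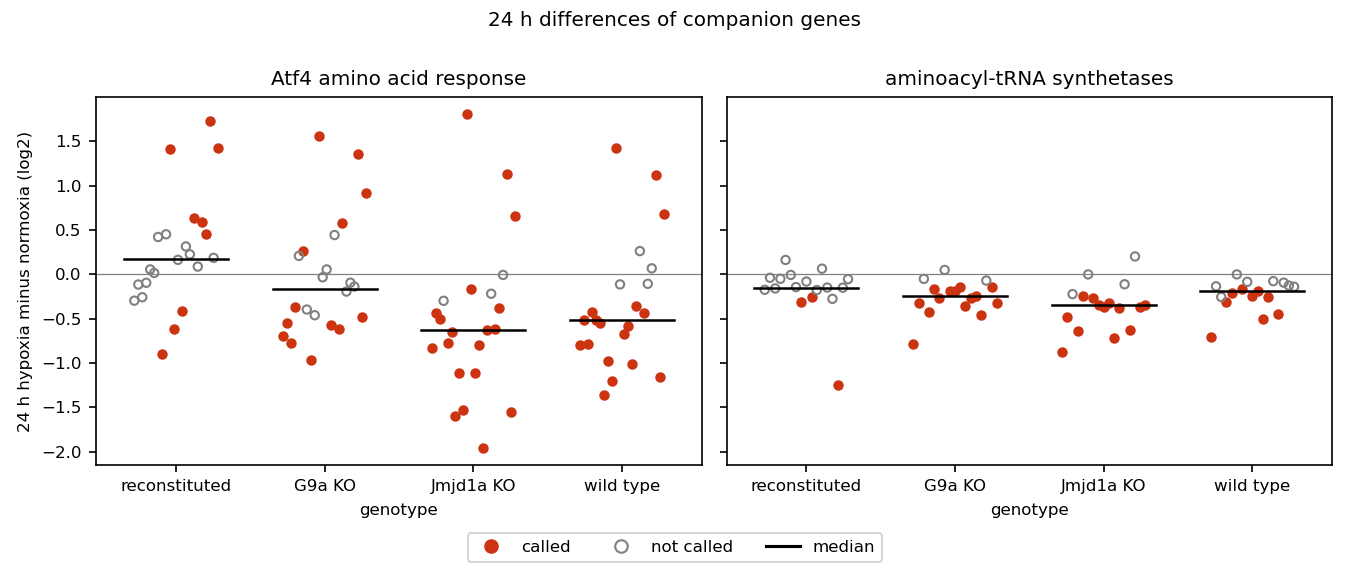
Log2 difference of 24 h hypoxia from normoxia for the tested genes of the Atf4 amino acid response (left, 22 genes) and the aminoacyl-tRNA synthetases (right, 17 genes) in 4 genotypes, filled where called by limma and open where not, with a line at the median. In wild-type cells 15 Atf4 response genes fell and 3 rose, and in the reconstituted line 3 fell and 6 rose.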

How the data were processed

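RNA of 63 cultures was read on Illumina mouse arrays, and the deposited table holds intensities on a linear scale that were made in BeadStudio, per the submitters' processing notes, with no background step or version given in the sources used here; its lowest value is 20 (log2 4.32). The intensities were quantile normalized between arrays, the floor was set again and log2 was taken. On 1 array (G9a KO2, 4 h, density 2) 9339 probes shared a further low value of 21.86, which was treated as the floor. Of 25697 probes 23978 had 1 gene symbol and 1719 none; 12754 passed the filter, and each of 8740 genes was read from its probe of highest mean.

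Hypoxia, reconstitution and density were tested with limma 3.58.1 in R 4.3.3 over all 63 arrays with 21 means of line and exposure and a linear density term. Knockouts were set against wild type over line means, 2 lines against 2. Benjamini-Hochberg adjusted p-values were read at 0.05. Dishes of a line differ in seeding density and nothing says that they are independent clones. P-values of the fit over all arrays therefore measure the spread between dishes. Those over line means measure the spread between lines. Values at the floor have no spread, so for members at the floor in some groups both kinds of error and p-value can be too small. The scripts were tested on simulated data. Array sets were inferred from steps in the array totals in order of accession and were used as a random block (correlation 0.709). Values followed by "with the block" come from that fit. Tables were handled with Python 3.11.15 and pandas 2.3.3, and figures drawn with matplotlib 3.10.9. A further table of this series was not used: 126 of its columns, 63 of them signals, could not be matched to samples.

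Members named with full values are those called at 24 h in at least 3 of 4 genotypes, the 4 with the largest wild-type 24 h differences, and up to 3 per genotype, reconstitution and density comparison; others named are said to be so. The members and the companion gene lists were chosen with earlier results of these data known. The alternatives were another scaling, an offset of 50, a stricter floor filter, other probe choices, blocks for array set, line and replicate, and leaving out each line or density.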

Additional observations from a re-analysis of the deposited data

Results flagged for a closer look

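Dixon's test of the highest and lowest culture was applied to 112 groups of 6 cultures, and 3 groups held a culture that stood apart, where chance gives about 1 in 20 groups. Slc38a9 in JMJD1a KO cells after 4 h was at 4.384 in JMJD1a KO2 at density 6, against 4.961 to 5.249 in the other cultures. Slc3a2 in G9a KO cells after 4 h was at 9.833 in G9a KO1 at density 2, against 10.384 to 10.612. Slc7a6 in G9a KO cells after 24 h was at 7.871 in G9a KO2 at density 2, against 7.223 to 7.426.

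In 4 further cases every culture of one genotype moved one way and every culture of another the opposite way, by seeding density within its line. Slc1a4 after 24 h was at 0.43 in the reconstituted line and -0.442 in wild-type cells. Slc38a2 after 4 h was at -0.364 in the reconstituted line and 0.115 in wild-type cells with the tested probe. With the other Slc38a2 probe the means were -0.101 and -0.138, the same direction in both, and neither was called. Slc7a7 after 4 h was at 0.254 in G9a KO cells and -0.185 in wild-type cells, and at -0.33 in the reconstituted line against 0.254 in G9a KO cells. These differences between genotypes were not tested, and the genotypes lie on different array sets.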

How the results depend on the processing

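Precision is limited by the number of arrays, by the floor, below which no change can be seen, and by the array sets, which cannot be told apart from genotype. An offset of 50, every probe, the probe with the highest variance and the second low value moved no count of called members by more than 1.5 times. With no further scaling 3 members were called in wild-type cells at 4 h and 2 for G9a KO against wild type in normoxia, and with median scaling 3 for wild type 24 h against 4 h and 2 for G9a KO in normoxia. With genes above the floor on all arrays the counts were 3 for wild type 24 h against 4 h, 6 and 4 for JMJD1a KO at 24 h and 4 h, 5 for the reconstituted line at 24 h, 2 and 7 for that line against G9a KO1 in normoxia and at 24 h, and 3 for G9a KO against wild type in normoxia, in a fit with fewer genes tested. With the array-set block they were 5 for JMJD1a KO at 24 h, 3 and 1 for G9a KO at 24 h and 4 h, 2 and 1 for the reconstituted line, and 1 and 1 for that line against G9a KO1; this block was not run on line means. With all arrays and the line as a random block 1 and 1 were called for JMJD1a KO against wild type in normoxia and at 24 h, 11 and 10 for G9a KO (55.7% and 59.1% of all genes in those fits), and 2 for the G9a KO difference in response. The share of all genes called was counted only for the array-set block and the line block, and not for the difference in response. Counts under the other alternatives therefore cannot be set against genes at large. Where not named, the cause was not tested.

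Leaving out 1 line or density in turn, the count ran from 2 to 7 for wild type at 24 h, 0 to 5 at 4 h, 1 to 5 for 24 h against 4 h, 5 to 14 for JMJD1a KO at 24 h and 3 to 7 at 4 h, 2 to 5 for G9a KO at 24 h and 2 to 4 at 4 h, 2 to 13 for the reconstituted line at 24 h and 1 to 10 at 4 h. It ran from 1 to 5 in normoxia and 9 to 12 at 24 h for the reconstituted line against G9a KO1, 1 to 4 and 0 to 2 for G9a KO against wild type, 0 to 0 and 0 to 3 for JMJD1a KO against wild type, 0 to 0 for both differences in response, and 0 to 6 for density. The share of all genes called was not counted in these fits. A shift in members and a shift in genes at large therefore cannot be told apart here. Values that turned were Slc38a2, from -0.1297 to 1.509 in wild-type cells at 24 h, from -0.2349 to 1.384 for 24 h against 4 h and from -0.2231 to 1.644 in JMJD1a KO cells. Slc7a9 for wild type 24 h against 4 h ran from -0.5334 to 0, and in JMJD1a KO cells at 24 h Slc1a3 ran from -0.7201 to 0.02142 and Slc38a4 from -1.144 to 2.903. The other Slc38a2 probe gave 0.1625 for the reconstituted line against G9a KO1 at 24 h, and 0.1465 with the array-set block, and was chosen after seeing the data.

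With density as a replicate block within lines, 7 members were called in wild-type cells at 24 h, all 9 counts run stayed within 1.5 times, and Slc7a6 at 4 h in wild-type cells (-0.2154) and Slc7a3 at 24 h in G9a KO cells (-0.1151) were no longer called. Cultures of the same line and density deviated together only weakly (median correlation 0.174 over 63 pairs, lowest -0.148), so the numbers were not taken to pair them.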
